A study of Mus musculus with 27 samples.

Results

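Potassium channel genes were taken as every symbol in the RNA tables that starts with Kcn, apart from the imprinted RNA gene Kcnq1ot1, which gave 97 of 24293 listed symbols. The 15 mouse RNA libraries form 5 groups of 3, namely control microglia collected on day 2 or day 7, microglia transduced with ND1 and collected on the same days, and cultured neurons. Days are counted from doxycycline, and the study compared control with ND1-transduced cells. All groups were wild-type C57BL/6 cells from cortex at postnatal day 1. The ND1 cells received a lentivirus that expresses ND1 and another that expresses M2rtTA, the doxycycline-responsive activator, in the presence of polybrene. They were then kept in Neurobasal with B27, BDNF, GDNF and NT3, and doxycycline was given 1 time. The neurons grew in Neurobasal with B27. The medium of the control microglia, and whether they met a virus or doxycycline, is not stated, so ND1, virus, doxycycline and medium cannot be told apart, and the labels neither spell out ND1 nor say that replicates were separate cultures. The p-values therefore measure only the spread between these libraries. Bisulfite sequencing covered 1 control library and 1 ND1 library, and no day is given for them.

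Potassium channels let potassium ions leave or enter the cell along their gradient and so set the resting potential and end each action potential. Voltage-gated channels (Kcna, Kcnb, Kcnc, Kcnd, Kcnq and Kcnh) open on depolarization, and their currents are shaped by electrically silent partners (Kcnf, Kcng, Kcns, Kcnv) and by accessory subunits (Kcnab, Kcne, Kcnip). Inward rectifiers (Kcnj) and tandem-pore leak channels (Kcnk) hold the resting potential, and another class opens on internal calcium or sodium (Kcnma, Kcnn, Kcnt). The Kcnmb and Kcnu genes were grouped with this class by symbol. Microglia are known for a small set of these currents, among them a tonic leak through Kcnk13 channels and inward rectification through Kcnj2, while cortical neurons combine many of them.

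Marker lists followed the labels: the summed level of 10 microglia markers was 12757 to 13439 FPKM in control day 7 libraries, 454 to 622 in ND1 day 7 libraries and 19.3 to 21.5 in neurons. FPKM stands for fragments per kilobase of transcript, scaled to library size, so levels can be compared between genes. The summed level of 8 neuronal markers was 21.0 to 28.5 FPKM in control day 7 libraries, 4164 to 4167 in ND1 day 7 libraries and 3222 to 3531 in neurons. FPKM sums per library ran from 429013 to 739846. Relative to the first control day 2 library, 1 read was worth 0.727 to 1.13, and less worth stands for more depth. Both went with the groups. FPKM sums were 679238 to 739846 in control, 447561 to 461085 in ND1 day 7 and 429013 to 483402 in neurons. The worth of 1 read was 0.936 to 1.13, 0.727 to 0.807 and 0.740 to 0.835 in the same order. The part of scale and depth in the levels and counts below was not tested.

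Control microglia had few potassium channel transcripts, and ND1 cells and neurons had many. The FPKM summed over the 97 members was 46.3 ± 0.606 in control day 2, 70.6 ± 1.15 in control day 7, 78.8 ± 3.98 in ND1 day 2, 275.8 ± 2.28 in ND1 day 7 and 417.6 ± 19.9 in neurons (mean ± SD, n = 3 for each group). Members with a group mean of at least 1 FPKM numbered 5, 7, 20, 52 and 62 in the same order. The highest group mean was in neurons for 59 members and in ND1 day 7 for 21. In control day 7 microglia, 3 members, Kcnk6, Kcnab2 and Kcnk13, made up 62.8% of the summed level. The highest 3 made up 24.8% in ND1 day 7 cells and 17.2% in neurons.

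The families did not have the same weight in each group. The Kcnk leak channels held 50.5% ± 2.03 of the summed level in control day 7, 13.2% ± 0.0920 in ND1 day 7 and 11.6% ± 0.253 in neurons. The voltage-gated pore subunits held 5.53% ± 0.299, 42.0% ± 0.258 and 35.8% ± 1.27 (mean ± SD, n = 3). The summed Kcnk level itself hardly differed between control day 7 (35.7 ± 1.00 FPKM) and ND1 day 7 (36.3 ± 0.176 FPKM), with different genes behind it: Kcnk6 and Kcnk13 in the control cells, and Kcnk2, Kcnk10 and Kcnk9 in the ND1 cells.

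**Figure D1:**
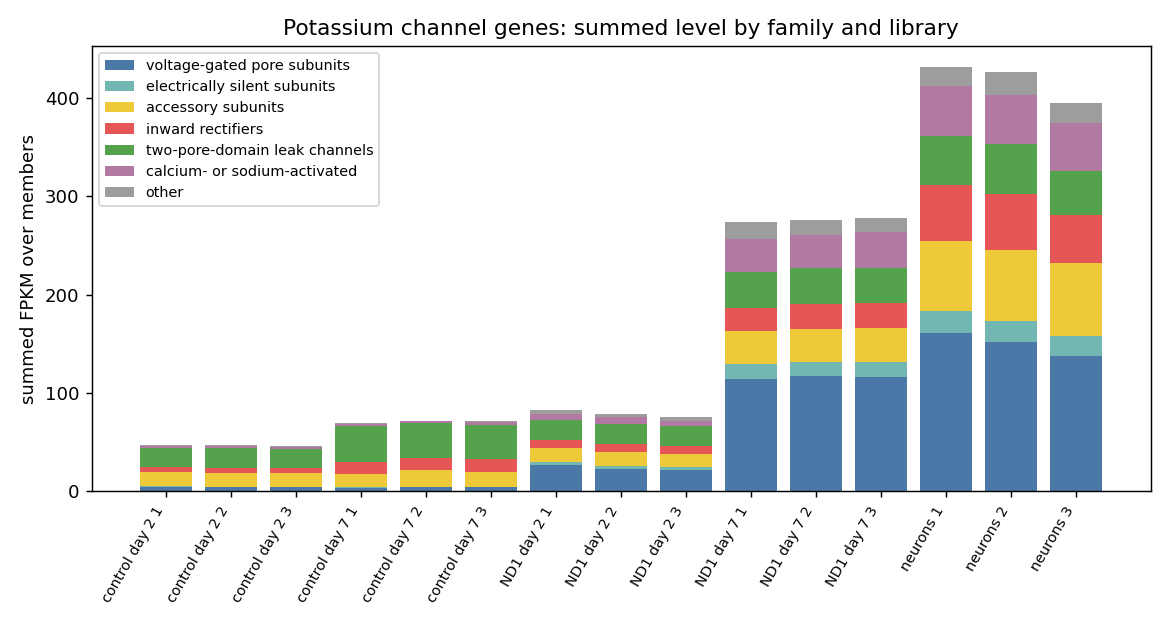
Summed FPKM of the potassium channel genes in each of the 15 libraries (bars, from 0), stacked by family. Control libraries lie between 45.6 and 71.7 FPKM, ND1 day 7 libraries between 273.4 and 277.9 and neurons between 394.8 and 431.4, and the voltage-gated share (lowest segment) widens from control to ND1 day 7.

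For tests, values were put on the log2(FPKM + 1) scale and fitted with limma across the 13602 genes that reached 1 FPKM in at least 3 libraries. A gene was called higher or lower where its p, adjusted after Benjamini and Hochberg, was under 0.05 and its log2 change was at least 1 in size. Of the 97 members, 65 were tested. The other 32 had no value above 1.18 FPKM in any library. Their highest group mean was in neurons for 13, in ND1 day 7 for 7, in ND1 day 2 for 5 and in control cells for 6, and Kcnk16 was listed at 0 in all 15 libraries. Of the 65 tested, 56 had no control microglia library at 1 FPKM and passed only through ND1 cells or neurons, so for them a difference from control is built into the filter and their counts are descriptions. Their log2 changes against control are descriptions too, and are given without single p-values. The same held for 15.4% of all tested genes. Other groups can have this limit too. Kcna1, Kcnc4, Kcnj9, Kcns2 and Kcnt2 reached 1 FPKM in neuron libraries only, so a lower level in ND1 day 7 than in neurons is built in. Kcnj10 reached 1 FPKM in control day 7 libraries only, so its higher level there is built in, and its changes are given without p-values.

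The promoters of 4 members at the centre of the results are shown here because their methylation was measured and because they stand for different courses of expression: Kcnk13, which fell in ND1 cells, Kcnj2, whose level was alike in control and ND1 cells, and Kcnmb4 and Kcnk2, which rose. Each is RefSeq sequence of GRCm38.p6 (mm10) from 250 bases before to 50 bases after the most upstream listed start, in the gene's own direction. The RefSeq gene interval begins at this start for Kcnj2 and upstream of the window for Kcnk13, Kcnmb4 and Kcnk2. Capitals mark the CpG sites with a methylation value in both bisulfite libraries.
Kcnk13: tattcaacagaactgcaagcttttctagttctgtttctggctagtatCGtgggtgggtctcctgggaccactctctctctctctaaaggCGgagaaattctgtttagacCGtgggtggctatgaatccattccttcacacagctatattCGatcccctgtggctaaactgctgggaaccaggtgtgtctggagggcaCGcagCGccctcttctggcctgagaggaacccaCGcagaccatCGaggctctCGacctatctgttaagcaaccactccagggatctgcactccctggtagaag
Kcnj2: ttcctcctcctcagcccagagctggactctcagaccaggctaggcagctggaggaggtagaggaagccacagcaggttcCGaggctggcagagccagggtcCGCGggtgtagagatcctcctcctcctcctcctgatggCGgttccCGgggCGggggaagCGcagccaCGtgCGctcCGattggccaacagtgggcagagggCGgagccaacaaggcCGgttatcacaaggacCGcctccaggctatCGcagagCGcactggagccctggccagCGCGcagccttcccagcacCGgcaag
Kcnmb4: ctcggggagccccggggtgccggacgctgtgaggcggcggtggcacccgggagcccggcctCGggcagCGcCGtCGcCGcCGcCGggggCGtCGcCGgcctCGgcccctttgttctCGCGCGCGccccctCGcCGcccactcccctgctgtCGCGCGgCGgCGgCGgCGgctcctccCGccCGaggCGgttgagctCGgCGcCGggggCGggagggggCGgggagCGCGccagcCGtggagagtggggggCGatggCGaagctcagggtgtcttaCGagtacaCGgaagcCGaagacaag
Kcnk2: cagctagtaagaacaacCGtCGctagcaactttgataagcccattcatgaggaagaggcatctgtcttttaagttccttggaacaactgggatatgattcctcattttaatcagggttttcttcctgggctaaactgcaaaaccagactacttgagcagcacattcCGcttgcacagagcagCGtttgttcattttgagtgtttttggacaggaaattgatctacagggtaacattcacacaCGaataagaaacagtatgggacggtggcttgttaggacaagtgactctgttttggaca
The Kcnk13 window lies at chr12:99964249-99964548 on the plus strand, the Kcnj2 window at chr11:111065914-111066213 on the plus strand, the Kcnmb4 window at chr10:116473474-116473773 on the minus strand and the Kcnk2 window at chr1:189402224-189402523 on the minus strand.

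Among leak channels, Kcnk6 and Kcnk13 fell in ND1 cells. Kcnk6 (mm10 chromosome 7, 29221928 to 29232522), described in macrophages as a path of potassium efflux, was at 22.4, 22.1 and 21.3 FPKM in the control day 7 libraries, at 1.23, 0.905 and 1.15 in ND1 day 7 and at 0.140, 0.0735 and 0.0761 in neurons. The groups did not overlap, and the ND1 day 7 level was 4.99% of that in control. The log2 change was -3.46 ± 0.0629 (SE; limma, adjusted p = 1.54e-15). In bulk samples like these, fewer cells of a type and less RNA per cell cannot be told apart. The microglia markers moved with it, with 9 of 9 tested members of that list lower at day 7 and none of the 10 at 0 in every library of a group, and their part in the result was not tested.

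Kcnk13, the tonic leak channel of microglia, was at 11.8, 10.9 and 10.7 FPKM in control day 7 and at 0.626, 0.665 and 0.685 in ND1 day 7, again without overlap. Its log2 change was -2.87 ± 0.0615 (SE; limma, adjusted p = 6.88e-15). Both genes had kept most of their level at day 2: ND1 cells then held 67.8% of the control level of Kcnk6 and 78.9% of that of Kcnk13, and neither was called. In neurons Kcnk13 stood at 1.09, 1.40 and 1.25 FPKM, above the ND1 day 7 libraries, with no call between these groups.

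Kcnj2, the strong inward rectifier described in microglia, did not follow them. It was at 9.14, 8.36 and 8.76 FPKM in control day 7 and at 8.23, 9.26 and 9.02 in ND1 day 7, and the groups overlapped. At day 2 it was at 3.78, 4.0 and 4.12 FPKM in control and at 3.84, 3.92 and 4.26 in ND1 cells. ND1 cells thus held 100.9% of the control level at day 2 and 100.98% at day 7. Its level in control day 7 was 2.20 times that in control day 2, which on the log2 scale (0.97) just missed the threshold. Neurons had 5.78, 5.04 and 4.41 FPKM.

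Kcnab2, a cytoplasmic beta subunit of voltage-gated channels, stayed expressed throughout. It was at 10.2, 12.4 and 11.2 FPKM in control day 7, at 8.28, 7.56 and 7.85 in ND1 day 7 and at 17.3, 18.5 and 18.6 in neurons. ND1 day 7 libraries lay below both other groups, and the call was made against neurons, with a log2 change of -1.10 ± 0.0568 (SE; limma, adjusted p = 6.07e-10).

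**Figure D2:**
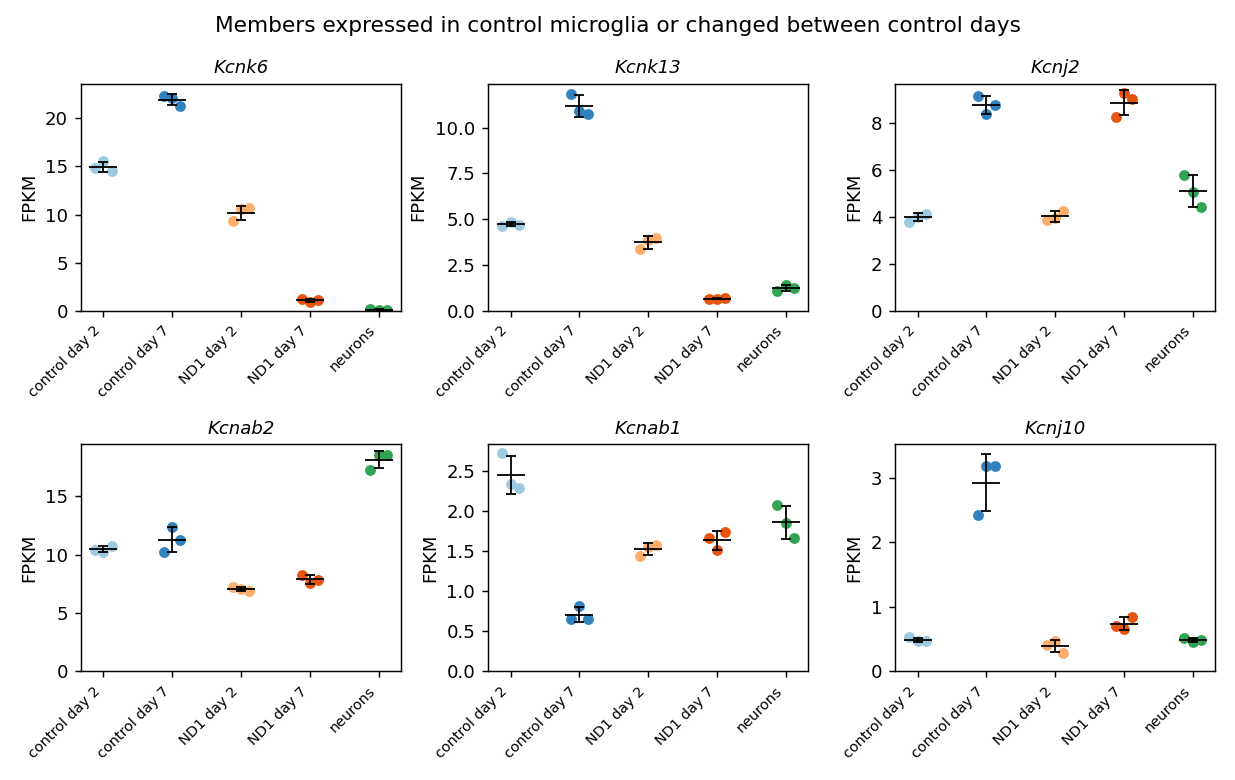
FPKM of 6 members in each library (points; 3 per group) with the mean and SD of each group in black, on axes that start at 0. Kcnk6 and Kcnk13 drop between ND1 day 2 and ND1 day 7, while Kcnj2 is near 4 FPKM at day 2 and between 8.23 and 9.26 FPKM at day 7 in control and ND1 cells alike.

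Other channels named in work on microglia were low here. Kcna3, a voltage-gated channel linked to microglial activation, had no control library above 0.475 FPKM and stood at 5.68, 5.54 and 5.59 FPKM in ND1 day 7 and at 5.87, 5.14 and 4.58 in neurons. Kcnn4, the intermediate-conductance calcium-activated channel of myeloid cells, was highest in control day 7, at 0.475, 0.514 and 0.465 FPKM, and was not tested. Kcne3 had 1 library above 0.127 FPKM, a control day 7 library at 0.472, and Kcna5 had none above 0.240 FPKM.

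At day 7, 46 of the 65 tested members were higher in ND1 than in control cells and 3 were lower, against 25.7% and 24.5% of all 13602 tested genes. The median log2 change was 1.52 over the tested members and 0.04 over all tested genes. The 3 lower members were Kcnk6, Kcnk13 and Kcnj10, and for Kcnj10 the lower level is built into the filter (above). By family, calls of higher level covered 20 of 24 tested voltage-gated pore subunits, 4 of 6 silent subunits, 5 of 8 accessory subunits and 4 of 7 inward rectifiers. They also covered 5 of 9 leak channels and 6 of 8 members grouped as calcium- or sodium-activated.

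Subunits of the M current, which limits repetitive firing, rose as well. Kcnq3 was at 0.0581, 0.156 and 0.101 FPKM in control day 7, at 5.15, 5.19 and 5.61 in ND1 day 7 and at 5.97, 4.77 and 4.73 in neurons. The ND1 day 7 and neuron libraries overlapped, and the change against control was 2.52 ± 0.0714 (log2, SE). Kcnq5 was at 0.0647, 0.0669 and 0.0717 FPKM in control day 7 and reached 6.71, 7.11 and 6.76 in ND1 day 7 against 12.7, 11.7 and 10.5 in neurons. Kcnq1, the cardiac and epithelial member, had no library above 0.0579 FPKM.

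The A-type channel genes Kcnd2 and Kcnd3, whose channels pass a fast inactivating current in dendrites, rose with the accessory genes Kcnip1, Kcnip2, Kcnip3 and Kcnip4. Kcnd2 was at 0.0787, 0.244 and 0.243 FPKM in control day 7, at 9.34, 9.41 and 9.33 in ND1 day 7 and at 20.4, 18.7 and 16.6 in neurons. Its change at day 7 was 3.13 ± 0.0841 (log2, SE). Kcnip1, a calcium-binding subunit of these channels, was at 0.155, 0.445 and 0.384 FPKM in control day 7, at 10.1, 10.9 and 10.4 in ND1 day 7 and at 23.4, 23.8 and 24.8 in neurons. The level summed over the 4 Kcnip genes, relative to that summed over the 3 Kcnd genes, was 1.28 ± 0.0444 in ND1 day 7 and 1.82 ± 0.242 in neurons. Within the Kcnip family the order differed: Kcnip4 was at 3.28, 3.73 and 3.88 FPKM in ND1 day 7 and at 14.8, 13.5 and 14.3 in neurons, while Kcnip3 was at 3.00, 2.31 and 2.75 in ND1 day 7 and at 1.06, 1.18 and 1.31 in neurons.

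The axonal Kcna channels made up a mixed group. Kcna3 was alike in ND1 day 7 and neurons, whereas Kcna1, Kcna4 and Kcna6 were called lower in ND1 day 7. Kcna1 had 0.447, 0.519 and 0.444 FPKM in ND1 day 7 and 3.46, 3.08 and 2.78 in neurons. Kcna6 had 3.19, 3.56 and 3.40 FPKM against 11.4, 11.3 and 10.2. Of the delayed rectifiers, Kcnc1, known from fast-spiking cells, was at 5.75, 5.80 and 5.60 FPKM in ND1 day 7 and at 5.92, 6.01 and 5.35 in neurons, and the groups overlapped. Kcnc4, of the same family as Kcnc1, was at 0.711, 0.668 and 0.697 FPKM against 3.96, 3.58 and 3.16 and was called lower. Among the ether-a-go-go type channels, Kcnh1 and Kcnh7 were also called lower than in neurons, and Kcnh3 (4.06, 3.78 and 4.18 FPKM in ND1 day 7) was not.

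Calcium-activated channels of large conductance, which bring the membrane back after a spike, rose through the pore gene Kcnma1 and its brain subunit Kcnmb4. Kcnma1 was at 0.0740, 0.0417 and 0.0261 FPKM in control day 7 and at 7.13, 7.20 and 7.22 in ND1 day 7, a change of 2.97 ± 0.0580 (log2, SE). Kcnmb4, whose promoter is printed above, was at 0.543, 0.160 and 0.301 FPKM in control day 7, at 15.3, 15.1 and 16.7 in ND1 day 7 and at 21.2, 21.9 and 22.9 in neurons. The ratio of Kcnmb4 to Kcnma1 was 2.18 ± 0.117 in ND1 day 7 and 2.04 ± 0.269 in neurons, and these overlapped. Kcnmb4os1 and Kcnmb4os2, RNA genes that overlap the ends of Kcnmb4, rose too, by 3.32 ± 0.105 and 2.32 ± 0.0677 (log2, SE). Strand is not stated for the counting, so reads of Kcnmb4 and of these genes cannot be told apart. Among small-conductance channels of the afterhyperpolarization, Kcnn2 was at 3.58, 3.76 and 3.84 FPKM in ND1 day 7 and at 6.00, 5.63 and 5.28 in neurons, and Kcnn1 was at 2.31, 2.30 and 2.63 against 1.20, 1.67 and 1.13.

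The largest called gap between ND1 day 7 and neurons among the members was that of an inward rectifier. Kcnj4, a strong rectifier of forebrain neurons and a close relative of Kcnj2, was at 3.08, 3.41 and 3.49 FPKM in ND1 day 7 and at 19.8, 23.0 and 18.7 in neurons, a change of -2.31 ± 0.0692 (log2, SE; limma, adjusted p = 2.43e-12). The ratio of Kcnj2 to Kcnj4 was 62.7 ± 18.9 in control day 7, 2.66 ± 0.0672 in ND1 day 7 and 0.249 ± 0.0375 in neurons. Kcnj2 stood above Kcnj4 in each microglia and ND1 library and below it in each neuron library. Of the G-protein-gated channels, which carry slow inhibition, Kcnj3 and Kcnj9 were called lower than in neurons, Kcnj6 was not, and Kcnj5 was not tested. Kcnj3 was at 5.93, 6.38 and 6.08 FPKM in ND1 day 7 and at 18.6, 17.1 and 14.4 in neurons, and Kcnj9 at 0.440, 0.704 and 0.575 against 3.12, 2.90 and 2.87. Kcnj6 was at 1.61, 1.61 and 1.36 FPKM against 3.71, 3.29 and 2.96, a log2 difference of -0.77. Kcnj11, the pore of the ATP-sensitive channel, was at 2.91, 2.64 and 2.86 FPKM in ND1 day 7 and at 3.36, 3.55 and 3.11 in neurons.

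Of the neuronal leak channels, Kcnk2 and Kcnk10 were near their neuronal level in ND1 day 7. Kcnk2, a mechano- and lipid-gated channel, was at 0.503, 0.631 and 0.452 FPKM in control day 7, at 12.9, 13.9 and 13.7 in ND1 day 7 and at 13.6, 13.9 and 12.9 in neurons, and the last groups overlapped. Its change against control was 3.25 ± 0.0627 (log2, SE). Its relative Kcnk10 was at 6.83, 6.40 and 6.85 FPKM in ND1 day 7 and at 6.41, 6.24 and 6.18 in neurons. The acid-sensitive Kcnk9 was at 5.70, 5.86 and 5.60 FPKM against 13.9, 12.9 and 10.3, and its log2 difference of -0.98 just missed the threshold of 1.

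**Figure D3:**
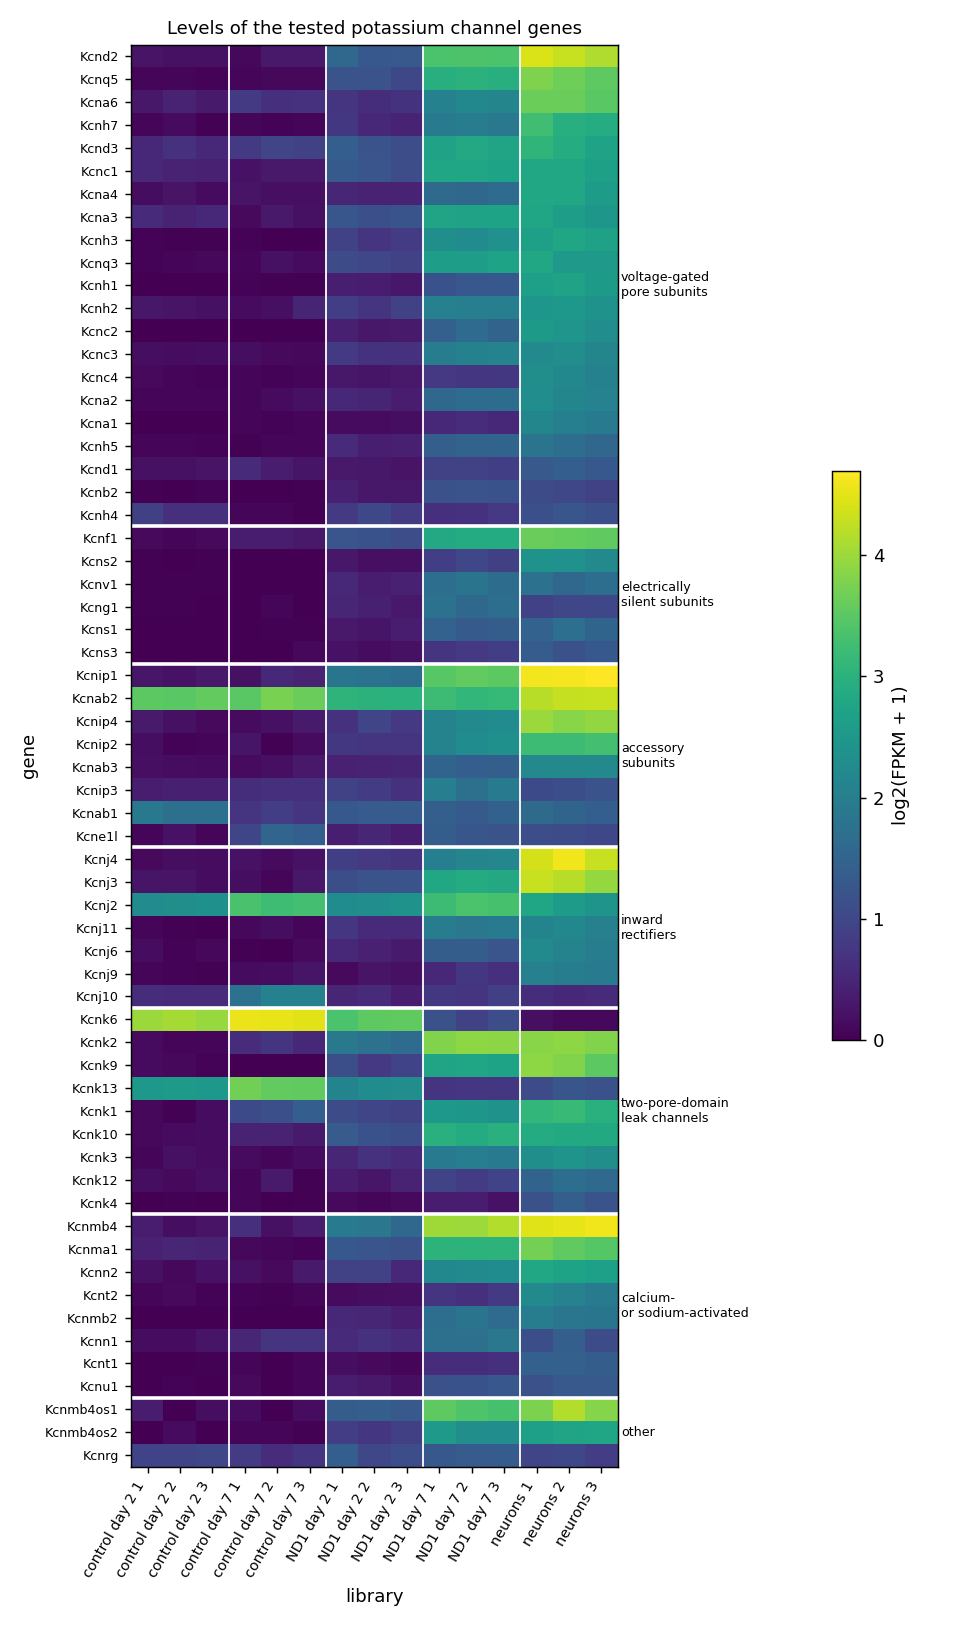
log2(FPKM + 1) of 62 of the 65 tested members (rows, by family and by highest group mean) in the 15 libraries (columns). Most rows are dark in the 6 control libraries, faint in ND1 day 2 and bright in ND1 day 7 and neurons, while Kcnk6 and Kcnk13 run the other way and Kcnab2 and Kcnj2 are bright in every group.

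Against neurons, 14 of the 65 tested members were lower in ND1 day 7 and 0 were higher, against 6.24% lower and 7.29% higher among all tested genes. At an unadjusted limma p under 0.05, 44 were lower and 10 higher, but the share of all tested genes at this looser threshold was not computed. The median log2 change against neurons was -0.46 over the tested members and 0.06 over all tested genes. The 14 lower members included 6 voltage-gated pore subunits (Kcna1, Kcna4, Kcna6, Kcnc4, Kcnh1 and Kcnh7), 3 accessory subunits (Kcnab2, Kcnip1 and Kcnip4), 3 inward rectifiers (Kcnj3, Kcnj4 and Kcnj9), the silent subunit Kcns2 and the sodium-activated Kcnt2. For 5 of them, Kcna1, Kcnc4, Kcnj9, Kcns2 and Kcnt2, no ND1 day 7 library was at 1 FPKM, and they passed the filter only through neurons. Their lower level is thus built into the filter, and the count of 14 is a description. Of the 46 members that were higher at day 7 than in control, 38 were not called against neurons and 8 were lower. The matching share over all genes higher at day 7 was not computed. A member that was not called need not have an equal level. Kcnip2, for example, was at 3.74 ± 0.420 FPKM in ND1 day 7 and at 8.45 ± 0.325 in neurons. In neurons, 52 of 65 members were higher than in control day 7 and 3 lower, against 28.1% and 25.3% of all tested genes. These comparisons share control day 7 or ND1 day 7 libraries and are set side by side only. Without 1 neuron library the count higher than in control fell to as few as 43, since 55 members were then tested: those that reached 1 FPKM in the neuron libraries only, such as Kcns2 and Kcnc4, no longer met the filter of 3 libraries.

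**Figure D4:**
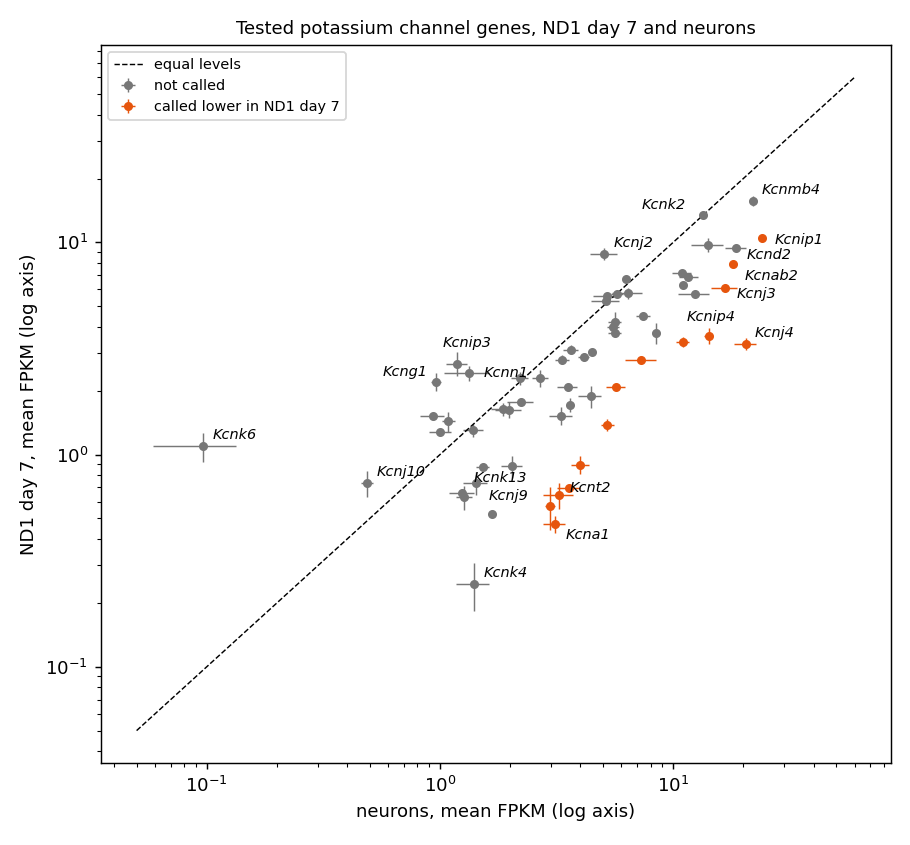
Mean FPKM of 62 of the 65 tested members in neurons and in ND1 day 7 (both axes log; bars are SD, n = 3; the dashed line marks equal levels). The 14 members called lower in ND1 day 7 (orange) lie below the line, with Kcnj4 and Kcnip4 the farthest among those above 10 FPKM in neurons, and Kcnk6, Kcnj2 and Kcnip3 lie above it.

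At day 2 the rise was smaller. There were 9 calls of higher level and 0 of lower level among the 65 members (13.8% and 0%), against 9.09% and 0.618% of all tested genes. At an unadjusted limma p under 0.05, 55 were higher and 4 lower, but the share of all tested genes at this threshold was not computed. The median log2 change was 0.42 over the tested members and -0.04 over all tested genes. The 9, which included Kcnk2, Kcnmb4, Kcnip1, Kcnmb4os1, Kcnd2, Kcnk10, Kcnf1 and Kcnq5, were also higher at day 7. Kcnk2 was at 2.66, 2.41 and 2.11 FPKM in ND1 day 2 against 0.0989, 0.0421 and 0.0494 in control, a change of 1.67 ± 0.0627 (log2, SE). The silent subunit Kcnf1, which assembles with Kcnb pores, was at 1.37, 1.28 and 1.15 FPKM against 0.0913, 0.0454 and 0.0869. Under quantile normalization 3 of the 9 calls were kept, among them Kcnk2 and Kcnmb4, beside 817 higher calls over all tested genes. With a pseudocount of 0.1 in place of 1 the count was 49, beside 2367 over all tested genes.

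The part of the rise reached at day 2 was nearly the same from gene to gene. It was computed on the FPKM scale as the distance of ND1 day 2 from control day 2, in percent of the distance of ND1 day 7 from control day 2, for the 48 tested members whose ND1 day 7 mean was at least 1 FPKM and more than 2 times that of control day 2. The median was 17.1%, and the middle part of the members (quartiles) lay between 15.7% and 18.4%. Over all 4180 genes that meet this rule the median was 16.3%, with quartiles of 13.3% and 17.9%, so the members did not stand apart from other rising genes in their median. Kcnk2 reached 17.3% and Kcnmb4 14.7%. The highest member was Kcnip1 with 21.2%, and the lowest were Kcna6 with 9.93% and Kcnj2 with 0.728%. The control level of Kcnj2 was also higher at day 7 than at day 2 (above), so its distance is not one of ND1 alone.

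**Figure D5:**
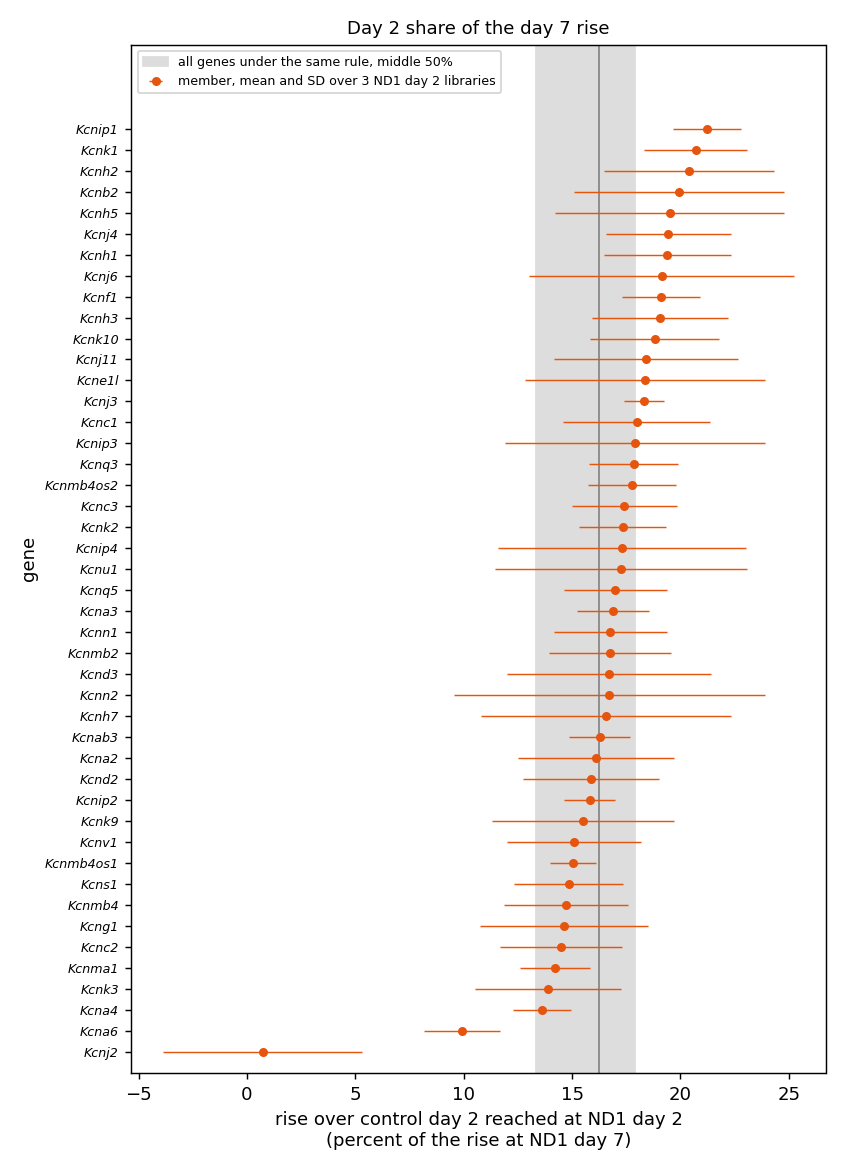
Share of the ND1 day 7 rise over control day 2 that was present at ND1 day 2 (percent), for 45 of the 48 members (points with the SD over the 3 ND1 day 2 libraries). The grey band holds the middle part of all 4180 genes under the same rule, and all members shown but Kcnj2 and Kcna6 lie between 13.6% and 21.2%.

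Between day 2 and day 7 within ND1 cells, 41 of 65 members rose and 2, Kcnk6 and Kcnk13, fell, against 22.6% and 21.1% of all tested genes. The ND1 effect itself was larger at day 7 than at day 2 for 39 members and smaller for 3 by the interaction term, against 20.5% and 20.8% of all tested genes.

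Control microglia changed less with time. Between day 2 and day 7, 4 members rose and 1 fell among the 65, against 3.9% and 3.79% of all tested genes. Kcnj10, the potassium-buffering rectifier of astrocytes, was at 0.526, 0.474 and 0.467 FPKM in control day 2 and at 2.42, 3.18 and 3.18 in control day 7, a change of 1.39 ± 0.0760 (log2, SE). It passed the filter through control day 7 only, so this change is a description. The other rising members were Kcne1l (1.18 ± 0.109), Kcnk1 (1.10 ± 0.0815) and Kcnk13 (1.09 ± 0.0615). Kcnk13 had no call under quantile normalization. Kcnab1, a beta subunit, was at 2.72, 2.34 and 2.29 FPKM in control day 2 and at 0.657, 0.812 and 0.648 in control day 7, a change of -1.01 ± 0.0661 (adjusted p = 1.41e-08). This call was lost under quantile normalization and without control day 2 replicate 1, control day 7 replicate 1 or control day 7 replicate 3.

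Markers of other cells moved with these control changes. The summed level of 8 astrocyte markers was 19.0 to 20.9 FPKM in control day 2, 70.4 to 75.6 in control day 7 and 36.5 to 37.0 in ND1 day 7, with 4 of 7 tested members higher in control day 7 than in control day 2. The summed level of 9 fibroblast and mural markers was 2.65 to 4.14 FPKM in control day 2, 51.0 to 65.0 in control day 7 and 49.2 to 54.1 in ND1 day 7, with 4 of 7 tested members higher in control day 7. Of these, Rgs5 was at 0 in every control day 2 library. The part of these cells in the values of Kcnj10, Kcnk1 and Kcne1l was not tested. Kcnj10 was lower in ND1 than in control cells at day 7, at 0.698, 0.658 and 0.850 FPKM, and the difference between the days of its ND1 effect was -1.07 ± 0.107 (log2, SE). Both are descriptions, since it passed the filter through control day 7 only. Kcnj16, its partner in glia, was at 0.300, 0.269 and 0.399 FPKM in control day 7 and was not tested.

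Members that lie next to each other on a chromosome did not share 1 pattern. Within 200 kb of each other, 16 pairs of members were found in RefSeq. On mm10 chromosome 11, Kcnj2 lies 38195 bases from Kcnj16, and the former was at 8.75 ± 0.391 FPKM in control day 7 while the latter did not reach 1 FPKM in any library. On chromosome 1, Kcnj9 lies 11887 bases from Kcnj10. Kcnj9 was highest in neurons (2.97 ± 0.136 FPKM) and Kcnj10 in control day 7 (2.92 ± 0.437 FPKM). On chromosome 3, Kcna3 and Kcna2 rose in ND1 cells while Kcna10, in the same cluster, had no library above 0.0293 FPKM, and on chromosome 6, Kcna1 and Kcna6 were expressed in neurons while their neighbour Kcna5 was not above 0.240 FPKM. Kcnmb1 lies inside the interval of Kcnip1 and had no library above 0.115 FPKM.

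Promoter methylation differed little between the control and ND1 libraries. The mean methylated fraction was taken over CpG sites measured in both libraries, from 1000 bases before to 500 after a start. This was the most upstream start with a listed promoter, which for genes such as Kcnh2 and Kcnk13 lies inside the RefSeq gene interval. All 71 members with a listed promoter had at least 5 sites measured in both libraries. With 1 library a group there is no test, and depth behind each site is unknown. The median was 13.7% in control and 13.6% in ND1 cells. In each library 28 members (39.4%) were under 10%, compared with 50.3% of 16308 promoters in control. The difference was under 5 percentage points for 69 of 71 members, all but Kcnj13 and Kcnrg. Only Kcnj13, which was weakly expressed (no library above 0.257 FPKM), passed 10 points, from 74.0% to 84.9% over 6 sites, beside 0.417% of promoters higher and 0.294% lower by that much. No value passed 10 points when at least 10 sites were asked for.

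Members that were higher in ND1 cells at day 7 had low or high methylation in control microglia at their most upstream listed start. Of the 30 such members with a promoter, 14 were under 10% in the control library, a share near the 50.3% of all promoters, and 3 were at 50% or more. These 3, Kcnip1, Kcnip3 and Kcnk2, each had another listed start of low methylation in control, at 6.62%, 2.09% and 3.83%. Their high values thus hold for the start taken, not for every start of the gene. Their differences lay between -3.65 and 3.05 points. Kcnmb4 was at 1.45% in control and 1.35% in ND1 cells over 159 sites, and Kcnma1 at 1.95% and 1.88% over 145 sites. The falling Kcnk13 was at 11.2% and 10.3%, and Kcnj2 at 0.659% and 0.928%. In the windows printed above, Kcnmb4 had 40 measured sites with means of 1.41% and 1.08%, Kcnj2 had 18 with 0.891% and 1.02%, and Kcnk13 had 9 with 4.01% and 2.86% (control, then ND1). The Kcnk2 window had 5 measured sites with means of 85.2% and 78.7%, the largest difference of the 4 windows.

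Some genes with several starts had both a start of low and a start of high methylation. At its most upstream listed start, whose sequence is printed above, Kcnk2 was methylated at 77.5% in control and 73.9% in ND1 cells, whereas around the most downstream of its 4 listed starts it was at 3.83% and 4.02%. Kcnip1 was at 55.9% and 58.9% at the upstream start and at 6.62% and 4.71% at the next one. Kcnip3 was at 81.8% and 80.2% upstream and at 2.09% and 3.20% at the last of its 3 starts. Others did not, such as Kcnc2, which in control was at 15.9% at the first and 3.38% at the last of its 4 starts. The RNA tables give 1 value per gene, so which start was used was not analysed here. The letters CAGATG, a form of the E-box that basic helix-loop-helix factors bind, were searched on both strands of the promoter windows of 300 bases and were in 13 of 71 members (18.3%), beside 14.8% of 17106 genes.

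Genes that work with these channels were given by lists of partners and of ion pumps. Of 19 partners 15 were tested, and at day 7 14 were higher in ND1 than in control cells and 0 lower, against 25.7% and 24.5% of all tested genes. The median log2 change was 2.69 over the tested partners and 0.04 over all tested genes. Several partners, such as Dpp6, Cntnap2 and Lrrc55, had means under 1 FPKM in both control groups. For them, as for most members, a difference from control is built into the filter, and the count is a description. The remaining partner, Snx27, changed by 0.48 (log2; limma, adjusted p = 1.01e-07). Dpp6, a transmembrane partner of Kcnd channels, was at 0.282 ± 0.0951 FPKM in control day 7, 11.8 ± 0.140 in ND1 day 7 and 23.3 ± 0.855 in neurons. Cntnap2, which places Kcna channels along axons, was at 0.107 ± 0.0740, 9.52 ± 0.475 and 18.4 ± 0.485. Lrrc55, an auxiliary subunit of Kcnma1 channels, was at 0.0414 ± 0.0418, 6.08 ± 0.244 and 11.9 ± 1.35. Against neurons 4 of the 15 partners were lower (Lgi1, Rgs7, Gnb5 and Akap5) and 2 higher (Cntn2 and Nedd4l), beside 6.24% lower and 7.29% higher among all tested genes.

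Genes of the pumps that build the potassium gradient moved in both directions. Of 12 listed pump and cation-chloride cotransporter genes 11 were tested, of which 3 were higher and 6 lower at day 7, beside 25.7% higher and 24.5% lower among all tested genes, so the share of higher calls was near that of all genes. Of the beta subunits of the sodium-potassium pump, Atp1b1 was at 8.32 ± 0.254 FPKM in control day 7 and 103.6 ± 2.26 in ND1 day 7, and Atp1b3 was at 317.1 ± 12.1 and 36.3 ± 0.695. The ratio of Atp1b1 to Atp1b3 was 0.0263 ± 0.00168 in control day 7, 2.85 ± 0.115 in ND1 day 7 and 10.4 ± 0.517 in neurons. Slc12a5, the neuronal chloride extruder, was at 0.203 ± 0.0323, 4.62 ± 0.0782 and 11.0 ± 0.739 FPKM, and Slc12a7 of the same family fell from 20.5 ± 1.44 in control day 7 to 3.11 ± 0.0523 in ND1 day 7 and 0.357 ± 0.0251 in neurons.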

How the data were processed

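RNA values are gene-level FPKM computed by the authors, who used TopHat, Bowtie2, Cuffdiff and Cufflinks on mm10 per the submitters' processing notes, with no versions for these steps. Bisulfite files hold the deposited methylated fraction of each CpG, without counts, and their aligner is, in the sources used here, not given. The files give no read counts, so no counting interval is given. Another 10 immunoprecipitation samples were not analysed here. FPKM values were put on the log2(FPKM + 1) scale and fitted with limma 3.58.1 (R 4.3.3, trend) over 15 libraries in 5 groups, for 7 comparisons, with 10 residual degrees of freedom and Benjamini-Hochberg adjustment over 13602 genes. The fit was tested on simulated data. Sums, ratios and promoter means were made in Python 3.11.15 with pandas 2.3.3. Whether equal replicate numbers mark paired libraries is not stated, and the main fit used no pairing. Of 30 pairs with equal numbers, 2 had a correlation over 0.1 (range -0.226 to 0.161). Pairs of unequal number were not compared, so this cannot show whether the libraries are paired. All 97 members matched RefSeq genes by symbol; 71 had a promoter entry. Members, families, lists and the rule for named genes were chosen with earlier results of these data known. The rule names the 8 largest called changes per direction, members at 10 FPKM or more in a group, calls against the main direction, members described in microglia, neurons or glia, neighbouring members and promoters past 10 percentage points. Some genes it names are not reported here. Genes beyond it in the text were chosen after their values were seen.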

Additional observations from a re-analysis of the deposited data

Results flagged for a closer look

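The ND1 effect differed between day 7 and day 2 by the interaction term of the limma fit, being larger at day 7 for 39 of the 65 tested members and smaller for 3. The positive differences of the log2 effects included those of Kcnma1 (2.20), Kcnmb4os1 (2.13), Kcnmb4 (2.12), Kcnd2 (1.96), Kcnk9 (1.89), Kcna3 (1.82) and Kcnq5 (1.81). The negative ones were those of Kcnk6 (-2.94), Kcnk13 (-2.60) and Kcnj10 (-1.07). For Kcnk13 the control level also rose between the days, so its difference holds a change in control cells as well as one in ND1 cells. The same goes for Kcnk6, which went up by 0.52 (log2) between the control days, short of the threshold. Kcnj10 rose by 1.39 (log2) between the control days and did not fall in ND1 cells, where its change was 0.32 (not called). Its negative difference thus holds the rise in control cells and no fall in ND1 cells. RNA groups of 3 libraries are too small for a test of single outlying libraries.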

How the results depend on the processing

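Of 133 called changes of named genes, none changed direction under any alternative run; 14 fell under the threshold with quantile normalization, 1 (Kcnk2, interaction) with a pseudocount of 0.1, and 1 (Kcnab1, control days) without single libraries. With the pseudocount of 0.1, calls were 49 higher for ND1 against control at day 2, 9 higher and 4 lower between control days, and 3 higher and 22 lower for ND1 day 7 against neurons. In the same order, the calls over all 13602 tested genes were 2367 higher, 1115 higher and 777 lower, and 1737 higher and 1192 lower. With quantile normalization the calls of members were 3 higher at day 2 and 0 lower between control days, beside 817 and 442 of all tested genes. The median over tested members at day 2 went from 0.42 to 0.05, and that over all tested genes from -0.04 to -0.10. With a minimum of 5 FPKM, which left 30 members, calls higher were 26 at day 7, 25 for the interaction, 2 between control days (0 lower), 26 for ND1 day 7 against day 2 and 26 for neurons against control, and 8 were lower in ND1 day 7 than in neurons. Without single libraries, calls lower between control days ranged from 0 to 1, calls higher in neurons than control from 43 to 53, and calls lower in ND1 day 7 than neurons from 10 to 15. The share over all tested genes was not computed for these runs or for the minimum of 5 FPKM. With the replicate number as a block, day 2 calls stayed at 9 and day 7 calls at 46 and 3, and the replicate block changed no named call. Summed FPKM over members that pass the filter was 45.1 in control day 2, 68.7 in control day 7 and 271.5 in ND1 day 7. The sum without its highest member is not given. Promoters past the methylation threshold upward were 0 with narrower or wider windows, with at least 10 sites and with a threshold of 20 points. With the most downstream listed start of each gene, an alternative chosen after seeing the data, the counts were 1 higher and 0 lower, as with the most upstream listed start.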
